A study of Arabidopsis thaliana with 16 samples.

Results

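CCR2 and HCT encode enzymes of the Arabidopsis phenylpropanoid pathway, and their transcript levels were followed in cultured cells given the cellulose synthesis inhibitors TA or IXB. CCR2 (AT1G80820) and HCT (AT5G48930) were chosen with earlier results of these data known. Their p-values and ranks below may therefore not be independent of that choice. Each gene was represented by the brightest ATH1 probe set annotated to that gene alone. Both genes had 1 such probe set. They were 2 of 13286 genes with a single-gene probe set, and 22746 probe sets entered the tests unless a filter is named. Both transcripts were higher after TA and after IXB than in methanol. CCR2 had the larger response to TA, 6.16-fold against 1.82-fold for HCT, although the low level of CCR2 in methanol makes its fold approximate. CCR2 was also the gene of this pair that was higher with TA than with IXB.

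The phenylpropanoid pathway turns phenylalanine into hydroxycinnamoyl-CoA esters, from which plants make the monolignols of lignin as well as flavonoids, coumarins and soluble esters. HCT, hydroxycinnamoyl-CoA shikimate/quinate hydroxycinnamoyl transferase, joins p-coumaroyl-CoA to shikimate and so opens the route to the caffeoyl, guaiacyl and syringyl units. CCR2, one of the cinnamoyl-CoA reductases, acts later and reduces the CoA esters to aldehydes, the first step committed to monolignols. In Arabidopsis, CCR1 is known as the main reductase of developmental lignin, while CCR2 is known for its induction by pathogens. Ectopic lignin has been described in Arabidopsis plants whose cellulose synthesis is impaired, which is why these genes are of interest after cellulose synthesis inhibitors.

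All cells were dark-grown suspension cells of Arabidopsis thaliana, ecotype Landsberg erecta, with no transgene named in the labels. The TA group received 2 µM TA, the IXB group 100 nM IXB, and the control group 20 µL of methanol, a volume that the cells of every group received. Treatment began on day 3 after sub-culture and lasted 6 h, and each group had 4 replicates, each pooled from 2 flasks holding 100 mL. TA and IXB are understood here as thaxtomin A, a toxin of plant-pathogenic Streptomyces, and isoxaben, a synthetic herbicide. These full names are general knowledge and do not come from the labels. Whether the replicates go back to different parent cultures is not in the labels, so each p-value reflects only how these samples vary, which may be technical in part.

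The 4 methanol arrays were deposited in 2 normalized versions, one in a set with the TA arrays and one in a set with the IXB arrays. Values are log2 RMA values, so a difference of 1 stands for a doubling, and levels were compared only within a set. Column medians were 5.21 to 5.31 in the IXB set and 4.76 to 4.86 in the TA set. On the same 4 methanol scans, the IXB-set version was higher than the TA-set version by a mean of 0.70 for CCR2 and 0.33 for HCT, beside a median of 0.32 over all probe sets. The number of arrays limits the precision, and the median SE of a difference over all probe sets was 0.090 with TA and 0.086 with IXB. The suspension-cell label was set beside markers of other cells. Of 6 leaf photosynthetic markers, 1 was measured, RCA, at 9.08 to 9.20 with TA, against 9.06 to 9.18 with methanol, and at 9.43 to 9.55 with IXB, against 9.51 to 9.72 with methanol. Of 8 lignifying xylem markers, 1 was measured, GUT2, at 4.88 to 5.10 with TA, against 4.66 to 5.08 with methanol, and at 5.19 to 5.65 with IXB, against 5.24 to 5.59 with methanol. RCA thus stood well above the column medians in every group of these dark-grown cells, and GUT2 stood near them. Neither was called in any comparison, and the remaining markers of both lists were not analysed here. With 1 marker measured per list, the label itself was not tested.

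TA raised CCR2 on every array. The CCR2 value was 5.94, 5.60, 5.99 and 5.74 on the TA arrays, against 3.22, 3.76, 2.73 and 3.06 on the methanol arrays of the same set, in replicate order. All 4 TA arrays lay above all methanol arrays, with 1.84 between the lowest TA and the highest methanol value, and non-overlap in this direction occurred for 7.45% of all probe sets. The means were 5.82 ± 0.18 with TA and 3.19 ± 0.43 with methanol (SD, n = 4 each). With TA, CCR2 stood above the medians of its arrays, and with methanol below them, where RMA compresses differences. The difference was 2.62 (SE 0.17, 95% interval 2.25 to 3.00), a 6.16-fold rise with an interval of 4.75 to 7.99, at an adjusted p of 5.56e-07 by limma with Benjamini-Hochberg adjustment over all probe sets. By this test, 5.41% of all probe sets were higher with TA. The exact permutation test over the arrays gave p = 0.0286, the smallest it can give with 4 against 4. Among the 13286 genes, CCR2 had rank 10 by the size of its rise with TA.

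HCT also rose with TA, by a smaller amount. Its value was 8.56, 8.34, 8.36 and 8.31 on the TA arrays, against 7.67, 7.70, 7.17 and 7.57 on the methanol arrays. The groups did not overlap, with a gap of 0.61, a pattern that occurred for 7.45% of all probe sets. Methanol replicate 3 was the lowest array for HCT as it was for CCR2. The means were 8.39 ± 0.11 with TA and 7.53 ± 0.25 with methanol (SD, n = 4 each). The difference was 0.86 (SE 0.11, 95% interval 0.62 to 1.11), a 1.82-fold rise with an interval of 1.53 to 2.16, at an adjusted p of 0.000295 by limma. HCT had rank 160 of 13286 genes.

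**Figure D1:**
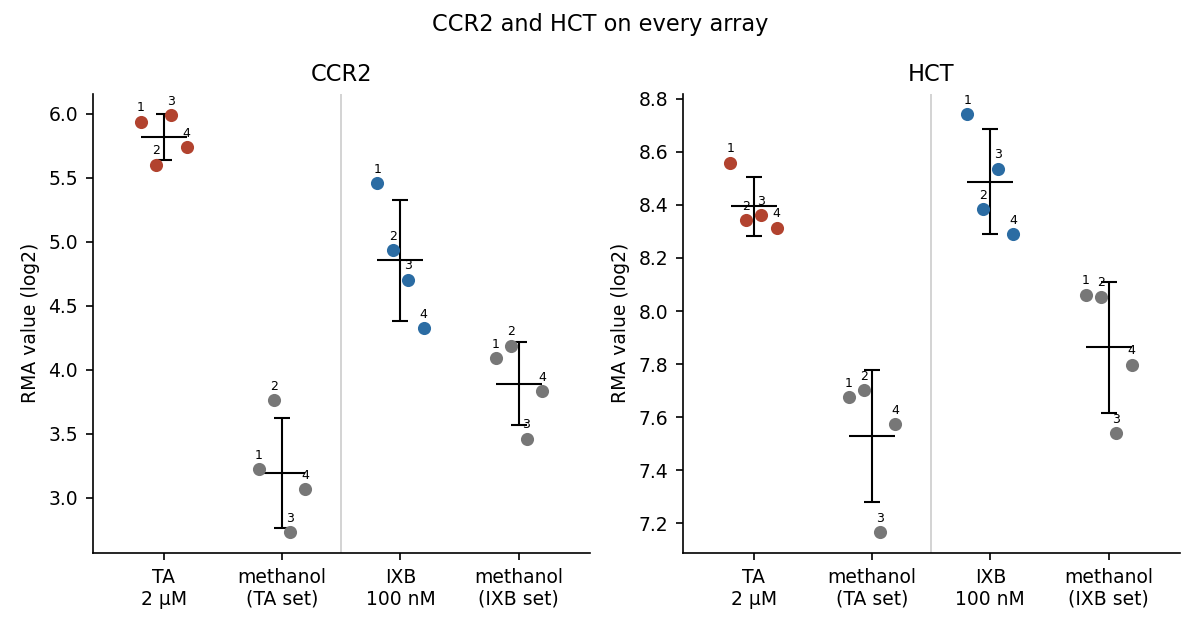
RMA value (log2) of CCR2 and HCT on every array. Points are arrays numbered by replicate, horizontal bars are group means and error bars SD (n = 4), and a vertical line separates the TA set from the IXB set, whose levels are not comparable. For CCR2 the TA arrays sit at 5.60 to 5.99 and their methanol arrays at 2.73 to 3.76, and in no panel does a treated group overlap its own methanol group.

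IXB raised both genes as well. The CCR2 value was 5.46, 4.93, 4.70 and 4.32 on the IXB arrays, against 4.09, 4.19, 3.46 and 3.83 on the methanol arrays of the IXB set. The groups did not overlap, but only 0.14 separated the lowest IXB array, replicate 4, from the highest methanol array, replicate 2. Non-overlap in this direction occurred for 5.35% of all probe sets. The means were 4.85 ± 0.47 with IXB and 3.89 ± 0.32 with methanol (SD, n = 4 each). The difference was 0.96 (SE 0.21, 95% interval 0.50 to 1.42), or 1.95-fold (1.41 to 2.68), at an adjusted p of 0.0320 by limma, where 2.2% of all probe sets were higher with IXB. CCR2 had rank 44 of 13286 genes in this comparison.

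The HCT value was 8.74, 8.38, 8.54 and 8.29 on the IXB arrays, against 8.06, 8.05, 7.54 and 7.80 on the methanol arrays. Every IXB array was above every methanol array, with a gap of 0.23, a pattern that occurred for 5.35% of all probe sets. The means were 8.49 ± 0.20 with IXB and 7.86 ± 0.25 with methanol (SD, n = 4 each). The difference was 0.62 (SE 0.13, 95% interval 0.35 to 0.90), or 1.54-fold (1.27 to 1.87), at an adjusted p of 0.0224 by limma, and HCT had rank 118 of 13286 genes. The exact permutation test gave p = 0.0286 for each gene with IXB.

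The IXB calls were near the threshold and were lost when any one of several arrays was left out. For CCR2 with IXB, the limma adjusted p was 0.0628, 0.0931 and 0.0618 without IXB replicate 1, 2 and 3, and 0.0585, 0.0639 and 0.0844 without methanol replicate 1, 3 and 4, while the difference stayed between 0.76 and 1.14. For HCT with IXB, it was 0.0635 without IXB replicate 1, 0.0618 without IXB replicate 3 and 0.0670 without methanol replicate 4, with differences of 0.52 to 0.69. The TA calls of both genes held with each of the 8 arrays left out, with differences of 2.47 to 2.81 for CCR2 and 0.74 to 0.92 for HCT.

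**Figure D2:**
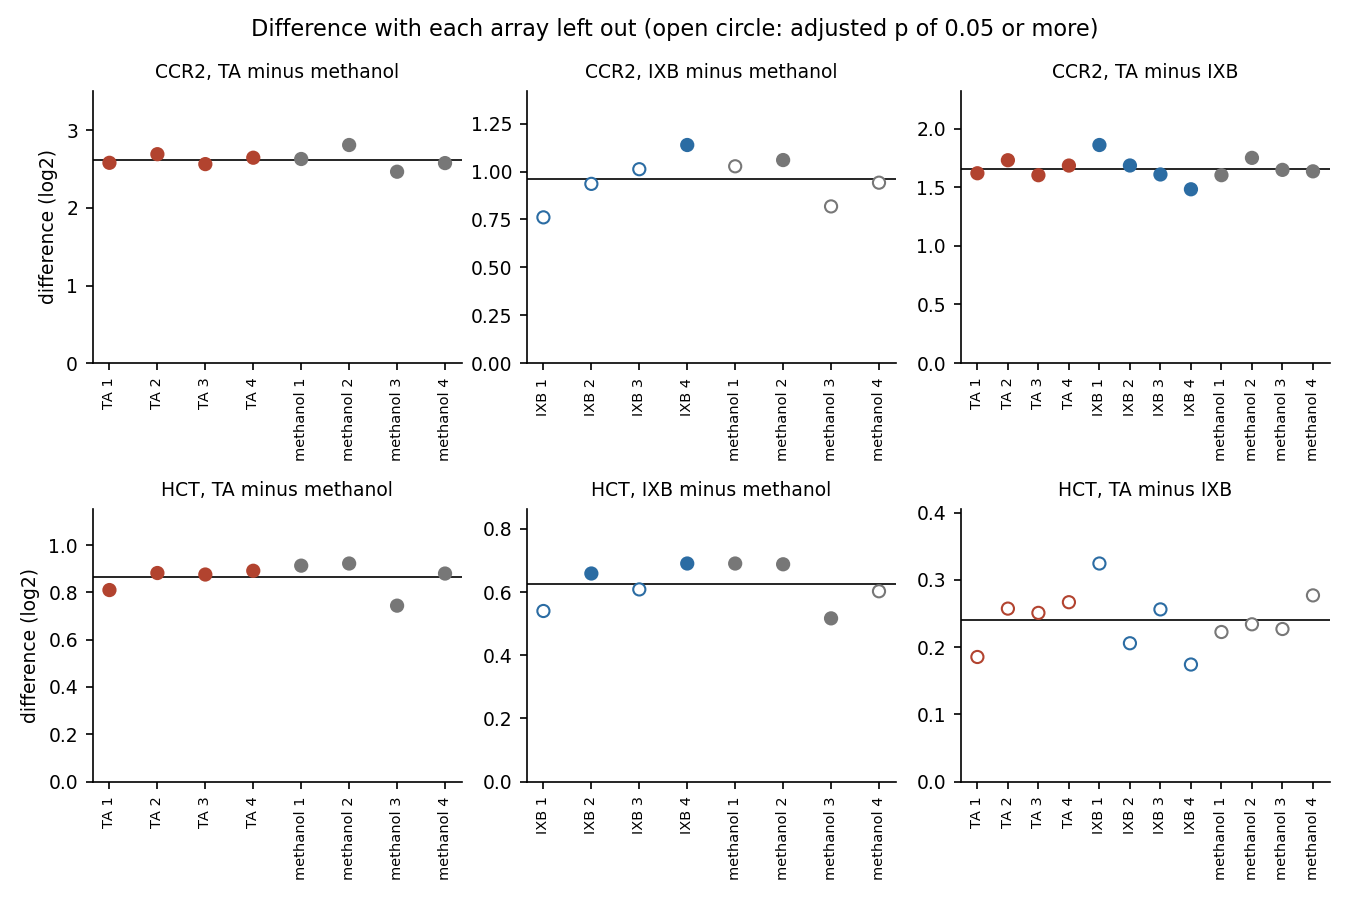
Difference (log2) of CCR2, upper row, and HCT, lower row, in each comparison with one array left out, named on the horizontal axis. The line marks the difference over all arrays, filled circles are adjusted p under 0.05 and open circles 0.05 or more. The circles stay filled in both TA minus methanol panels, whereas 6 of 8 circles for CCR2 and 3 of 8 for HCT are open in the IXB minus methanol panels.

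TA and IXB were then compared directly, at doses that differ, 2 µM TA and 100 nM IXB. Each array was given as its distance from the mean of the methanol arrays in the same set. For CCR2 the distances were 2.74, 2.41, 2.79 and 2.55 with TA, and 1.57, 1.04, 0.81 and 0.43 with IXB. Every TA array was above every IXB array, with a gap of 0.84, a pattern that occurred for 6.08% of all probe sets. The difference was 1.66 (SE 0.20, 95% interval 1.24 to 2.08), or 3.16-fold (2.36 to 4.24), at an adjusted p of 0.000155 by limma, where 2.72% of all probe sets were higher with TA. CCR2 had rank 5 of 13286 genes by this difference, whose size is approximate. On the same methanol scans CCR2 read a mean of 0.70 higher in the IXB set, against a median of 0.32 over all probe sets. CCR2 was also below the column medians on IXB replicates 2, 3 and 4, where RMA compresses differences.

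For HCT the distances were 1.03, 0.81, 0.83 and 0.78 with TA, and 0.88, 0.52, 0.67 and 0.43 with IXB. The groups overlapped, and 1 of 4 TA arrays was above all IXB arrays. The difference was 0.24 (SE 0.12, 95% interval -0.01 to 0.49), or 1.18-fold (0.99 to 1.40), with an adjusted p of 0.274 by limma and an unadjusted p of 0.0573. The interval includes 0 as well as a 1.40-fold higher level with TA, so these arrays do not show that the treatments raise HCT equally.

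**Figure D3:**
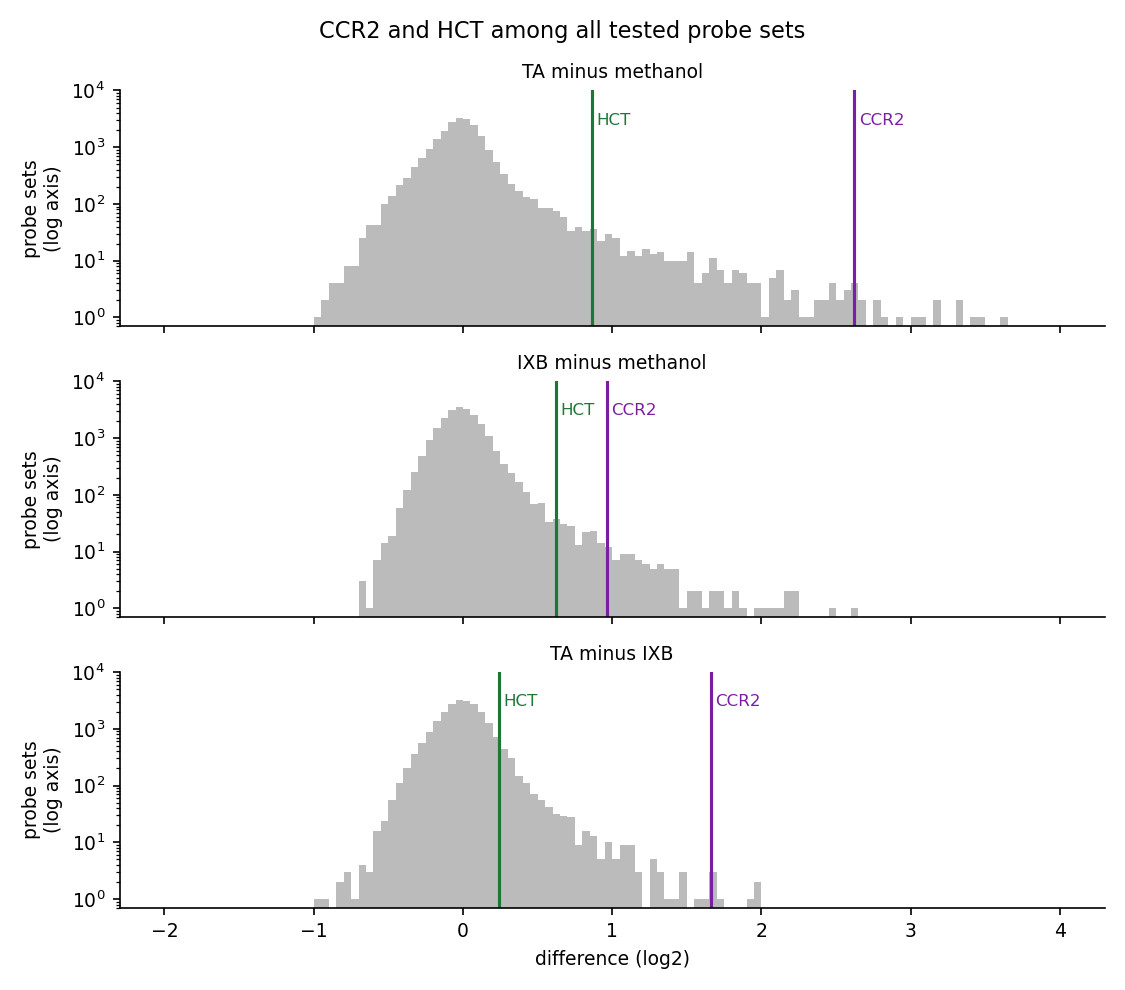
Number of probe sets (log axis) by difference (log2) in the 3 comparisons, for all 22746 probe sets in grey. Vertical lines mark HCT and CCR2. In TA minus methanol CCR2 lies at 2.62 and HCT at 0.86, in IXB minus methanol at 0.96 and 0.62, and in TA minus IXB at 1.66 and 0.24.

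The pair responded by unlike amounts to TA. On the log2 scale the CCR2 change exceeded the HCT change by 1.76 with TA against methanol (exact permutation test over arrays of CCR2 minus HCT, p = 0.0286, adjusted over the 3 comparisons 0.0429). With IXB against methanol the excess was 0.34 (exact p = 0.0857, adjusted 0.0857), which did not pass. In TA minus IXB the excess was 1.42 (exact p = 0.0286, adjusted 0.0429). The change with IXB was 36.7% of that with TA for CCR2, approximate because of its low methanol level, and 72.2% for HCT on the log2 scale, and both changes were measured against the same methanol scans.

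The arrays of one group ordered alike for both genes in part. IXB replicate 1 was the highest and IXB replicate 4 the lowest of the IXB arrays for CCR2 and for HCT. Methanol replicate 3 was the lowest methanol array for both, 0.45 below the methanol mean for CCR2 and 0.34 below it for HCT. IXB replicates 2 and 3 changed places, at 1.04 and 0.81 for CCR2 and 0.52 and 0.67 for HCT. The TA arrays differed less among themselves, over 2.41 to 2.79 for CCR2 and 0.78 to 1.03 for HCT. Their order was unlike, with replicate 3 highest and 2 lowest for CCR2, and replicate 1 highest and 4 lowest for HCT.

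A list of 21 genes known for induction by low oxygen, of which 10 were measured, moved with TA. Of these 10, 9 rose with TA by limma, 0 passed with IXB (2 higher at an unadjusted p under 0.05), and 5 were higher in TA minus IXB. Over all probe sets, 5.41% were higher with TA, 2.2% with IXB and 2.72% in TA minus IXB. The mean of the 10 genes, relative to methanol, was 1.61, 1.04, 1.52 and 1.28 on the TA arrays, -0.61, 0.47, 0.90 and 0.89 on the IXB arrays, and 0.03, -0.55, 0.17 and 0.34 on the methanol arrays. IXB replicate 1, the highest IXB array for CCR2 and HCT, thus had the lowest low-oxygen mean of the IXB arrays. With this mean as a covariate in limma, CCR2 was higher by 3.24 with TA (adjusted p = 0.00413) and by 1.22 with IXB (adjusted p = 0.000271), and by 2.16 in TA minus IXB (adjusted p = 4.44e-05). HCT was higher by 0.73 with IXB (adjusted p = 0.00338), and its TA minus IXB difference was 0.43 (adjusted p = 0.183). Its TA difference of 1.01 no longer passed (adjusted p = 0.348), with an SE of 0.30 against 0.11 without the covariate. The low-oxygen mean of the TA arrays (1.04 to 1.61) overlapped neither that of the methanol arrays nor that of the IXB arrays (-0.61 to 0.90). The fits of TA minus methanol and of TA minus IXB therefore cannot separate the mean from TA. With the covariate, limma calls over all probe sets went from 2299 to 137 with TA and from 685 to 1047 with IXB. In TA minus IXB they went from 1085 to 305. The part of the low-oxygen genes in the CCR2 and HCT differences was not tested.

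**Figure D4:**
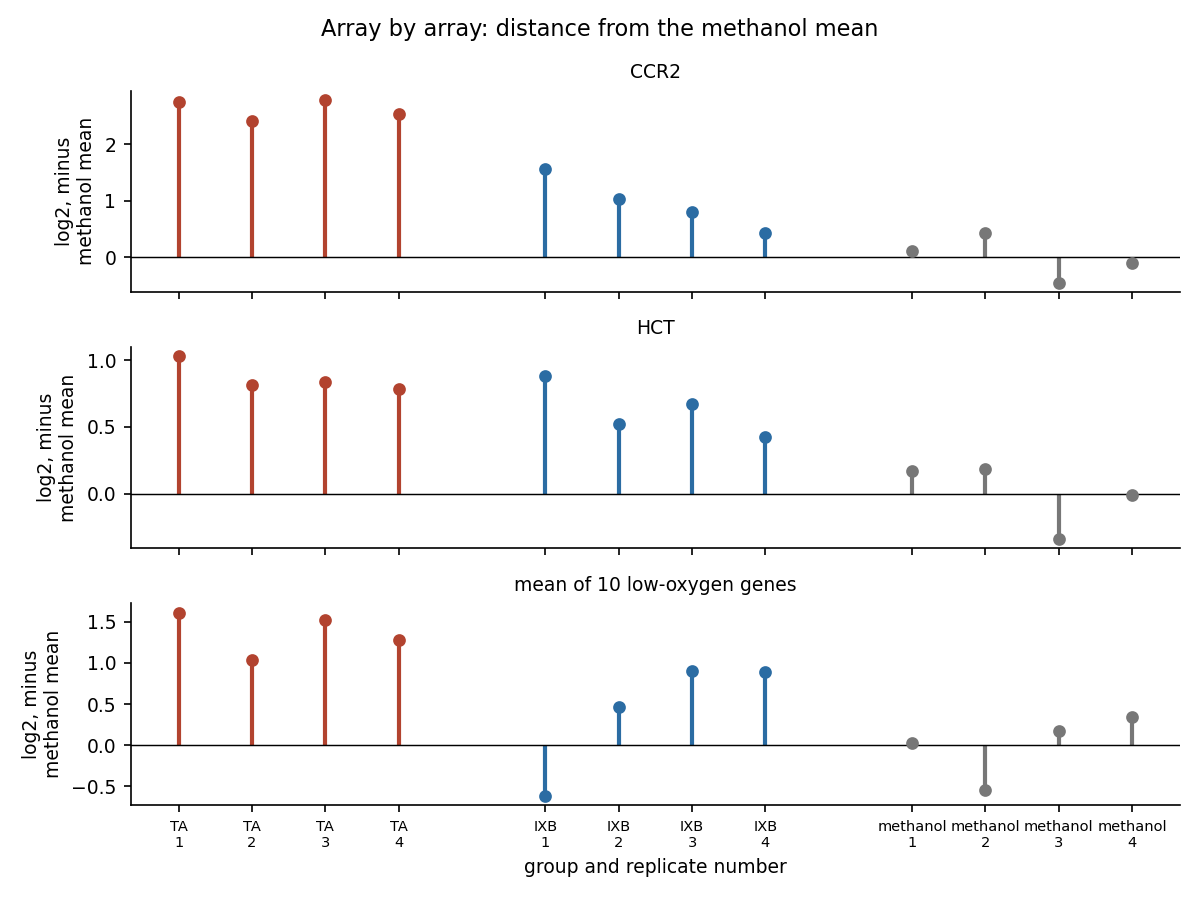
Distance of each array from the methanol mean of its set (log2) for CCR2, HCT and the mean of 10 low-oxygen genes. Stems are single arrays, with the same array in the same column of all panels. IXB replicate 1 is the highest IXB array for CCR2 (1.57) and HCT (0.88) and the lowest for the low-oxygen mean (-0.61).

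Markers of dividing cells moved with TA too. Of 7 markers, 3 were measured, and AUR2 and TOPII, a mitotic kinase and a topoisomerase, fell by 0.54 and 0.44. The adjusted p by limma was 0.000230 for AUR2 (SE 0.07) and 0.00936 for TOPII (SE 0.09). By this test, 4.7% of all probe sets were lower with TA. The summed log2 value of the 3 was 22.7 to 23.0 with TA, against 23.8 to 24.2 with methanol, and 23.9 to 24.4 with IXB, against 24.5 to 24.8 with methanol. With IXB, 0 of 3 passed by limma (2 lower at an unadjusted p under 0.05), where 0.809% of all probe sets were lower. In TA minus IXB 1 was lower, beside 2.05% of all probe sets. The part of these genes in the CCR2 and HCT differences was not tested. In these bulk samples, a change in the proportion of cells that express a gene and a change in its RNA per cell cannot be told apart.

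The rest of the pathway was sparsely covered. Of 67 phenylpropanoid genes in the list, 10 had a single-gene probe set in the annotation used here. They comprised 3 of 19 monolignol genes, 2 of 11 genes of lignin assembly and 5 of 11 genes of flavonoid and coumarin branches. A gene is called measured in this report where it had such a probe set. None of the 9 entry genes, which include PAL and 4CL, and none of the 17 regulators had one, and they were not analysed here. The arrays may still carry probe sets for them, since 8730 tested probe sets are unnamed here. With TA, 2 of the 10 were higher and 0 lower by limma, beside 5.41% and 4.7% of all probe sets. The 2 were CCR2 and HCT, which were chosen with earlier results of these data known. With IXB the limma counts were again 2 and 0, for CCR2 and HCT, beside 2.2% and 0.809% of all probe sets. In TA minus IXB, 1 was higher, CCR2, and 0 lower, beside 2.72% and 2.05% of all probe sets. At an unadjusted p under 0.05 the counts were 4 and 0 with TA, 2 and 0 with IXB, and 4 and 0 in TA minus IXB. The share of all probe sets was not counted at that threshold.

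The median change of the 10 genes was 0.14 with TA, 0.08 with IXB and 0.10 in TA minus IXB, beside medians of -0.01, -0.01 and -0.00 over all probe sets. Without CCR2 and HCT, the other 8 had a median of 0.08 with TA, over a range of -0.09 to 0.43, and of 0.05 with IXB, over -0.16 to 0.16. In TA minus IXB their median was -0.05, opposite in sign to that of the 10, and 3 of 8 were positive. In 7 of these 8 genes all group means were under 5, near or below the column medians.

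The remaining measured monolignol gene was ALDH2C4, the aldehyde dehydrogenase that makes ferulic and sinapic acid from the corresponding aldehydes. ALDH2C4 averaged 2.92 ± 0.05 with TA and 2.75 ± 0.17 with methanol, and 3.07 ± 0.18 with IXB and 3.23 ± 0.20 with methanol (SD, n = 4 each). These means all lay below the column medians, where RMA compresses differences. The differences of ALDH2C4 were 0.17 with TA, -0.16 with IXB and 0.33 in TA minus IXB. All TA arrays were above all IXB arrays, as for 6.08% of all probe sets, but the adjusted p of 0.0705 by limma missed the threshold. In TA minus IXB it passed with the replicate block (0.0274), array weights (0.0378) and either quantile normalization (0.0381 and 0.0363). It also passed there without IXB replicate 3 (0.0359).

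Of lignin assembly, PRX52, a class III peroxidase implicated in lignin formation, came nearest to a call. PRX52 was 8.97, 8.75, 8.65 and 8.36 on the TA arrays, against 7.95, 8.19, 8.60 and 8.26 on the methanol arrays. The groups overlapped, with 3 of 4 TA arrays above all methanol arrays. The difference was 0.43 (SE 0.14, adjusted p = 0.0803 by limma), and with IXB it was 0.05. PRX52 was called with TA under an intensity trend (adjusted p = 0.0410), with array weights (0.0215), without TA replicate 4 (0.0297) and without methanol replicate 3 (0.0219). Among the 5 branch genes, the locus AT1G28680 differed most with TA, by 0.33 (adjusted p = 0.139 by limma), with values of 3.70, 4.27, 4.36 and 4.29 on the TA arrays and 3.75 to 3.92 on the methanol arrays. Here TA replicate 1 was below all methanol arrays while the other TA arrays were above them. Without TA replicate 1, AT1G28680 was called by limma with TA (0.48, adjusted p = 0.00307) and in TA minus IXB (0.43, adjusted p = 0.00522), and array weights also gave a call with TA (adjusted p = 0.0330).

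Other loci of a cinnamoyl-CoA reductase list were examined for a response like that of CCR2. Of 8 loci on the list, 6 were measured and 1, AT4G30470, was called. AT4G30470 was 5.92, 5.50, 5.70 and 5.56 on the TA arrays, against 4.80, 5.02, 4.77 and 4.58 on the methanol arrays. On the IXB arrays it was 5.68, 5.67, 5.95 and 5.83, against 5.27, 5.52, 5.40 and 5.03 on the methanol arrays of that set. Neither treated group overlapped its methanol group, a pattern that occurred in this direction for 7.45% of all probe sets with TA and 5.35% with IXB.

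AT4G30470 rose with TA by 0.88 (SE 0.11, adjusted p = 0.000213) and with IXB by 0.48 (SE 0.11, adjusted p = 0.0329), and was higher by 0.40 in TA minus IXB (SE 0.11, adjusted p = 0.0436), all by limma. The IXB call was lost without any one of IXB replicates 1 to 4 or methanol replicates 1 and 4 (adjusted p 0.0566 to 0.0884). The TA minus IXB call was lost without TA replicate 1 or 3, IXB replicate 1, 2 or 4, or methanol replicate 3 (adjusted p 0.0719 to 0.129). It was also lost with an intensity trend (0.0734), in an ordinary linear model (0.123), with quantile normalization of all 16 columns together (0.0564) and with the low-oxygen covariate (0.318), and the ordinary model ended the IXB call as well (0.160). Once the low-oxygen mean was entered as a covariate, its difference with TA was 1.04 (SE 0.30, adjusted p = 0.281), in a fit that cannot separate the mean from TA. The same limit holds for TA minus IXB with the covariate. The other 5 loci of this list had differences of -0.17 to 0.13 with TA, and none was called in any comparison. AT2G02400, singled out after its values were seen, differed in the direction opposite to CCR2, by -0.17 with TA (unadjusted p = 0.0404, adjusted 0.195) and -0.19 with IXB (unadjusted p = 0.0252, adjusted 0.214) by limma.

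HCT belongs to the BAHD acyltransferases, which transfer acyl groups from CoA esters to alcohols or amines. Of 8 other members listed, 4 were measured, and all 4 had group means under 5. None was called with TA by limma (0 at an unadjusted p under 0.05), with IXB (1 higher unadjusted) or in TA minus IXB (2 lower unadjusted). SDT, spermidine disinapoyl transferase, was farthest from 0 with TA, at -0.17 (adjusted p = 0.227 by limma).

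**Figure D5:**
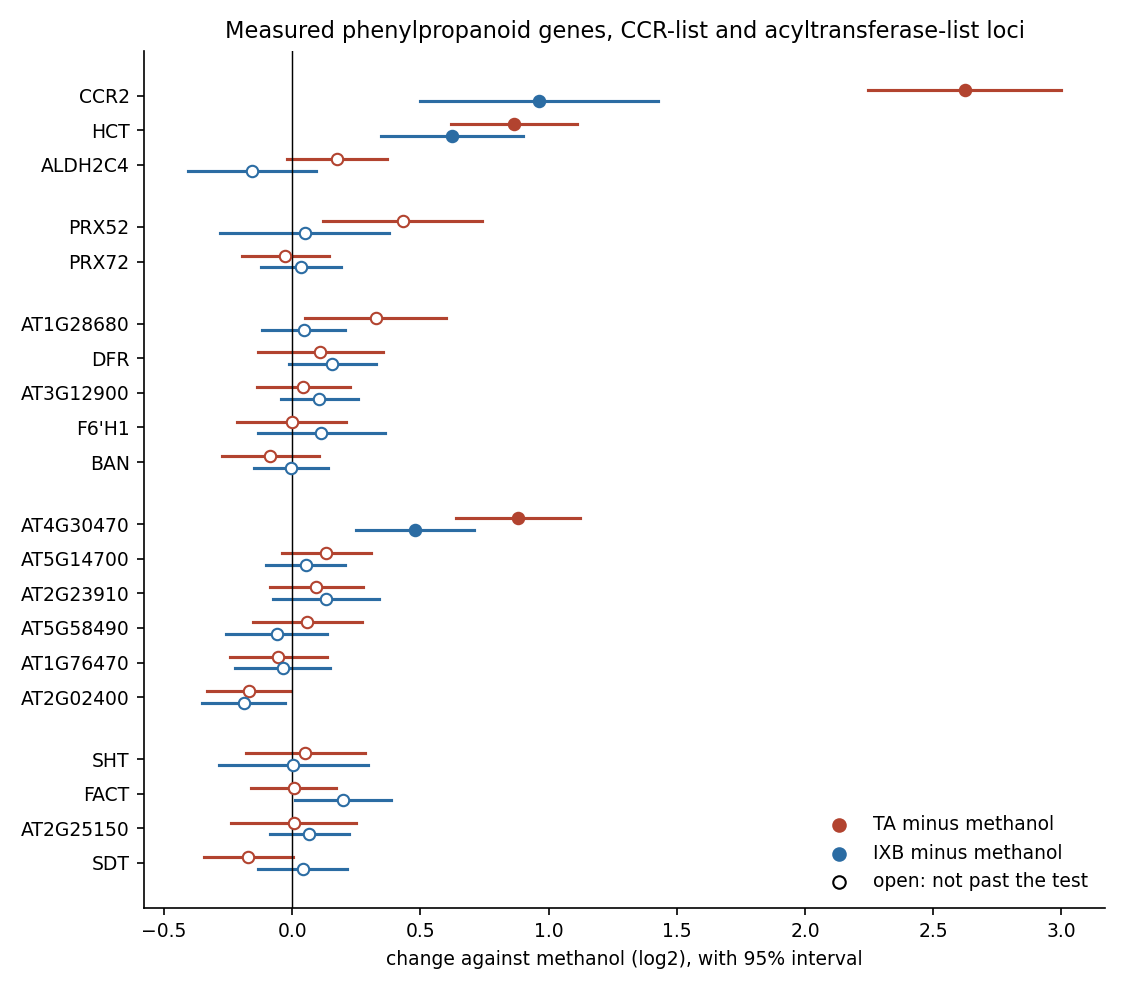
Change against methanol (log2) with its 95% interval for the measured genes, grouped from the top as monolignol, lignin assembly, branch, cinnamoyl-CoA reductase-list and acyltransferase-list genes. Red is TA, blue IXB, and open circles did not pass. The filled circles are those of CCR2, HCT and AT4G30470 for both treatments.

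The genes beside CCR2 and HCT on the chromosome, up to 3 on each side in the order of the TAIR10.1 annotation, did not pass the test where they were measured. These were AT1G80780, AT1G80810 and AT1G80850 near CCR2, and LPA66 and AT5G48940 near HCT. Their differences with TA ran from -0.21 to -0.07 and with IXB from -0.16 to -0.00, and none was called in any comparison by limma.

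Genes with the most similar profile were found by the root mean square difference in distance from the methanol mean over the 12 arrays, among 13285 other genes. This measure keeps the size of the change. No gene came within 0.25 of CCR2, and 15 came within 0.5, whereas 81 genes came within 0.25 of HCT and 895 within 0.5. CCR2 itself was at a root mean square distance of 1.64 from no change and HCT at 0.64. The distance between CCR2 and HCT was 1.05, which gave HCT rank 132 by likeness to CCR2 and CCR2 rank 13243 by likeness to HCT, of 13285 genes.

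The 6 genes nearest to CCR2 were AT1G20070 (distance 0.365), AT1G05340 (0.370), AT2G32030 (0.371), AT5G38700 (0.388), AT2G39110 (0.390) and AT2G01300 (0.401). Their differences were 2.11 to 2.78 with TA and 0.86 to 1.38 with IXB, values that the choice by likeness largely fixes. The one that came closest, AT1G20070, changed by 2.78 with TA and 0.86 with IXB, beside 2.62 and 0.96 for CCR2.

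The 6 genes nearest to HCT were AT2G32020 (distance 0.0419), AT5G65300 (0.0797), CSLA03 (0.122), AT5G04760 (0.124), AT4G20830 (0.129) and AT4G33985 (0.134). Their differences were 0.76 to 0.98 with TA and 0.57 to 0.75 with IXB. AT2G32020 changed by 0.85 with TA and 0.60 with IXB, beside 0.86 and 0.62 for HCT, and the locus next to it in name, AT2G32030, was among the 6 nearest to CCR2. The likeness is a description over arrays that share culture, treatment and normalization, and carries no test.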

How the data were processed

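RNA of 12 samples in 3 groups of 4 was hybridised to Affymetrix ATH1 arrays, which appear as 16 deposited columns because the methanol arrays occur in both sets. The deposited log2 values came from RMA, run by the authors according to the submitters' processing notes, and its version and settings are not given in the sources used here. RMA gives the arrays of a set one distribution, so a shift of all transcripts is not visible, and it compresses changes of dim transcripts. The tables hold 22810 probe sets, of which 64 control probe sets were left out.

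Of the tested probe sets, 13513 had 1 gene in the platform annotation, 503 had several and 8730 are unnamed here; 13436 matched a locus in the TAIR10.1 gene table. Differences were tested by lmFit and eBayes of limma 3.58.1 under R 4.3.3 (two-sided, Benjamini-Hochberg over 22746 probe sets, threshold 0.05), within each set for TA and IXB against methanol. For TA minus IXB, each column was centred on its set's methanol mean and both versions of each methanol array entered as their mean. The fit was checked on simulated data.

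The genes and lists were chosen with earlier results of these data known. Named genes are CCR2 and HCT, list members past the threshold, the member farthest from 0 with TA in a list without one, and the 6 most alike; ALDH2C4 was added after its values were seen. Deviations of same-numbered IXB and methanol arrays correlated at 0.101 to 0.147, and those of differently numbered arrays at -0.212 to 0.295. Of the 4 IXB arrays, 2 matched their own number best. These correlations do not show a pairing and no label states one, so the replicate block is given only as an alternative fit. For same-numbered TA and methanol arrays the values ran from -0.06 to 0.29. Alternatives covered the replicate block, variance prior, normalization, filters, a low-oxygen covariate and leaving out each array. Protein and promoter sequences of these genes were not used here.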

Additional observations from a re-analysis of the deposited data

Results flagged for a closer look

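Among 83 groups of 4 arrays checked, 1 held an array far from the others: AT1G28680, a locus on the side-branch list, was 3.70 on TA replicate 1 and 4.27 to 4.36 on the other TA arrays, a gap of 0.852 of the whole range. Chance marks about 1 in 20 such groups. Neither CCR2 nor HCT had such an array in any group.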

How the results depend on the processing

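CCR2 and HCT kept their direction under every alternative run, and CCR2 kept its call with TA and in TA minus IXB (1.65 to 2.16 over the alternatives that keep all arrays, 1.48 to 1.86 with 1 array left out). The replicate block rests on a pairing that no label states and that the array correlations do not show. With this block, the adjusted p by limma with IXB was 0.00244 for CCR2 and 0.00828 for HCT. No call of either gene changed with it, and the number of phenylpropanoid genes higher in TA minus IXB was 2 in place of 1. The ordinary linear model without moderation ended both IXB calls (difference 0.96, adjusted p = 0.201 for CCR2, and 0.62 and 0.155 for HCT). With 1 array left out in limma, the IXB differences were 0.76 to 1.14 for CCR2 and 0.52 to 0.69 for HCT. The low-oxygen covariate ended the HCT call with TA (1.01, SE 0.30), in a fit that cannot separate the covariate from TA. The same limit holds for TA minus IXB with the covariate. HCT in TA minus IXB stayed uncalled (0.17 to 0.32 with 1 array left out, 0.43 with the covariate). Leaving out 1 array gave 0.22 to 0.45 for CCR2 minus HCT with IXB, which passed without IXB replicate 4 (exact p = 0.0286).

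The number of phenylpropanoid genes higher with TA, 2, became 4 with array weights, 3 with an intensity trend, 3 at an adjusted p under 0.1, 2 to 3 with 1 array left out, 1 with the covariate and 1 without dim probe sets (mean under 5), a filter that also removed CCR2. With IXB it became 0 in the ordinary model, 1 without dim probe sets, 0 at an adjusted p under 0.01 and 0 to 2 with 1 array left out. In TA minus IXB it became 2 with array weights, with either quantile normalization and at an adjusted p under 0.1, 0 without dim probe sets, and 1 to 2 with 1 array left out. Of the uncalled genes recomputed under the alternatives (ALDH2C4, PRX52, AT1G28680 and SDT), the values that changed sign were ALDH2C4 with TA (-0.10) and PRX52 with IXB (-0.11) under the covariate, and with 1 array left out those with IXB of PRX52 (-0.049 to 0.19, below 0 without IXB replicate 3 or 4 or methanol replicate 1), AT1G28680 (-0.010 to 0.085) and SDT (-0.0081 to 0.095), the last pair below 0 without methanol replicate 2. Over all probe sets, calls with TA numbered 2299, against 1242 in the ordinary model and 137 with the covariate; with IXB 685, against 212 and 1047; in TA minus IXB 1085, against 618 and 305. The causes were not tested. Another single-gene probe set was not tried, since each gene had 1 in the annotation used here. The number of arrays limits what can be seen.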
